A study of Mus musculus with 2 samples.

Results

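Branched-chain amino acids (BCAA: leucine, isoleucine and valine) and ketone bodies are mitochondrial fuels of the heart. BCAA are first transaminated to branched-chain keto acids, which the branched-chain keto acid dehydrogenase complex (BCKDH) decarboxylates irreversibly. The products then run down separate branches to acetyl-CoA, acetoacetate and succinyl-CoA. Ketone bodies made mainly in the liver are taken up by heart muscle, oxidized to acetoacetate and activated with a CoA taken from succinyl-CoA, so that both fuels end in the tricarboxylic acid (TCA) cycle.

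The genes described here are 9 members of these routes chosen by symbol, out of 22882 gene symbols in the files. They are Bcat2, Bckdha, Bckdhb, Dbt and Ppm1k (transamination, BCKDH and its phosphatase), Mccc1 and Pcca (biotin-dependent carboxylases of the branches), and Oxct1 and Bdh1 (use of ketone bodies). Each stands on 1 row. Their RNA was compared between Med1fl/fl heart (control) and csMed1-/- heart, in mice of C57BL6/J background, mixed sex and 23 days of age, to ask how loss of the Mediator subunit Med1 in cardiomyocytes affected heart gene expression. All mice carried the floxed Med1 allele, and csMed1-/- mice carried in addition a Cre transgene driven by the α-myosin heavy chain promoter, which acts in cardiomyocytes, so the other cells of these hearts keep Med1. RNA of 5 hearts was pooled for each genotype, and each pool gave 1 library. There are therefore no replicates, the spread between hearts or pools is unknown, and no ratio below has a test. Values are FPKM, the fragments of a gene divided by its transcript length and by library size. How well levels of different genes compare on this scale was not tested. The cardiomyocyte gene Ttn, for example, stood at 8.22 FPKM in control, against 20467 FPKM for Myl2. Ratios between genes below therefore describe FPKM only.

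Med1 was at 3.38 FPKM in control against 0.412 FPKM in csMed1-/- heart, a ratio of 0.122. A gene entered the comparison if neither library listed it at 0 and its higher value reached 1 FPKM. These 10489 genes had a median log2 ratio of csMed1-/- to control of -0.07 (quartiles -0.72 and 0.55). Of all genes kept, 18.0% were more than 2-fold lower in csMed1-/- heart and 13.6% more than 2-fold higher. Of cardiomyocyte markers, 5 of 11 kept were more than 2-fold lower and 1, Nppa, more than 2-fold higher. Their summed level was 59045 FPKM in control against 39379 FPKM in csMed1-/- heart. Actc1, Mb and the joint row of Myh6 and Myh7 were listed at 0 in control and at 9189, 1040 and 646.9 FPKM in csMed1-/- heart. Cardiac muscle uses these genes throughout, so a 0 there can be a failed estimate. None of the 9 members was listed at 0. The counts of the next lists are likewise of markers past 2-fold. Fibroblast markers summed to 561.7 FPKM in control against 1251 FPKM in csMed1-/- heart, with 5 of 10 past 2-fold higher and 2 lower. Endothelial markers summed to 545.4 and 478.6 FPKM, with 3 of 9 past 2-fold lower and 1 higher. Smooth muscle and pericyte markers summed to 797.7 and 1159 FPKM, with 3 of 8 past 2-fold higher and 2 lower. Leukocyte markers summed to 326.1 and 365.6 FPKM, with 1 of 7 kept past 2-fold higher. Erythroid rows summed to 15941 and 24884 FPKM, with all 3 higher and 1 of them past 2-fold. Hepatocyte markers summed to 9.05 and 2.24 FPKM, with 2 of 3 kept past 2-fold lower. The 5 adipocyte markers were all listed at 0 in control and summed to 0.0271 FPKM in csMed1-/- heart. The most abundant marker of each list in control was Myl2 (20467 and 6571 FPKM), Col3a1 (139.4 and 220.0 FPKM), Cdh5 (128.6 and 92.2 FPKM), Acta2 (572.6 and 310.0 FPKM), Lyz2 (115.7 and 68.0 FPKM), the joint row of Hba-a1 and Hba-a2 (8894 and 12084 FPKM) and Alb (6.23 and 0.746 FPKM), in the same order. The part of such shifts in the ratios below was not tested, and fewer cardiomyocytes cannot be told apart from less RNA per cardiomyocyte.

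Either way, 31.5% of the genes kept differed by more than 2-fold. Of the 9 members, 5 were more than 2-fold lower in csMed1-/- heart, Bckdhb, Pcca, Oxct1, Mccc1 and Dbt, where 18.0% of all genes kept were. The other 4, Bcat2, Bckdha, Ppm1k and Bdh1, lay within 2-fold, and 0 members were more than 2-fold higher, where 13.6% of all genes kept were. The median log2 ratio of the members was -1.50. Summed over the 9 genes the level went from 725.9 to 400.0 FPKM, a ratio of 0.551. The sum was carried by Bckdha, which held 52.9% of it in control and 66.7% in csMed1-/- heart. Dbt and Ppm1k reached 1 FPKM only in control and Bdh1 only in csMed1-/- heart, so the filter alone could favour the direction seen for these 3. With 1 FPKM required in both libraries, 6 members stayed and 4 of them were more than 2-fold lower, against 14.7% of genes. Among genes at 10 FPKM or more in either library, 16.3% were more than 2-fold lower, and 4 of the 6 members at that level were.

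**Figure D1:**
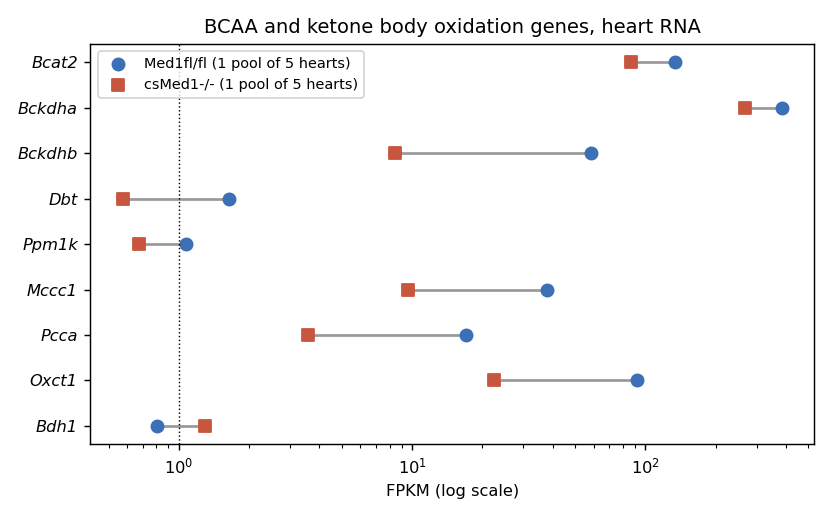
FPKM (log axis) of the 9 members in the control library (circles) and in the csMed1-/- library (squares), 1 pool of 5 hearts each, joined by a line per gene; the dotted line marks 1 FPKM. The squares of Bckdhb, Mccc1, Pcca and Oxct1 lie far to the left of their circles, those of Bcat2 and Bckdha lie close by, and Bdh1 runs the other way, from 0.807 to 1.29 FPKM.

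The regions before the transcription starts of Bckdhb, Pcca and Mccc1 are shown because these genes fell in the same direction and held a match to a GC box, and they were picked after the search. RefSeq promoter windows on GRCm38.p6, the assembly family of the authors' mm10 build, were found for 8 of 9 members, all but Dbt. Below are the 250 bases before the start nearest to the annotated gene start of Bckdhb (chr9:83924887-83925136, plus strand), Pcca (chr14:122534078-122534327, plus strand) and Mccc1 (chr3:36000679-36000928, minus strand), with that of Bcat2 (chr7:45569903-45570152, plus strand), which lay within 2-fold. Capitals mark matches on either strand of AGGTCA (the core of nuclear receptor sites), GGGGCGGGG (a GC box) and CCACCC (a KLF box).
Bckdhb: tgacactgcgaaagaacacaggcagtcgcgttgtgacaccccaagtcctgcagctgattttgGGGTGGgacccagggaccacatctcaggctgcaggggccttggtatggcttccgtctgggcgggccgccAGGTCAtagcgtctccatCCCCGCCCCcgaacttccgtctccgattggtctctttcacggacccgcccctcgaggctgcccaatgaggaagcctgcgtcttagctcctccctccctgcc
Pcca: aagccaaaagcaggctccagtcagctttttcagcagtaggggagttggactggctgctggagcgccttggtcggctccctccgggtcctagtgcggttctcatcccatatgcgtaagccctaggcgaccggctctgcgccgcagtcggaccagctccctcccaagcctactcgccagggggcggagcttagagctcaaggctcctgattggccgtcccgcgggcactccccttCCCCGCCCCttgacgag
Mccc1: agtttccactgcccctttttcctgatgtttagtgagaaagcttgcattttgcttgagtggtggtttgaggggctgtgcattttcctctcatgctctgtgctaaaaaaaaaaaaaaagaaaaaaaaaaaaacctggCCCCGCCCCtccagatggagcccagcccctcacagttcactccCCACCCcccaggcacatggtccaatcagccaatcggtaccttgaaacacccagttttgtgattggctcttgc
Bcat2: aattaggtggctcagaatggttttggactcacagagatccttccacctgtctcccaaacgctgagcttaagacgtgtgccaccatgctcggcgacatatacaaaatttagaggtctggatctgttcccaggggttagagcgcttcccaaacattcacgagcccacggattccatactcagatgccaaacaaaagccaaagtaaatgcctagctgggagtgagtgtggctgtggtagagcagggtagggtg

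The GC box stood in the windows of Bckdhb, Pcca and Mccc1 and of no other member, and 10.4% of 32851 RefSeq windows of the same length hold it. Oxct1, which was 4.07-fold lower in csMed1-/- heart, held no match to the GC box, AGGTCA or CCACCC in its window. AGGTCA was found before Bckdhb and Ppm1k and in a second, distant window of Pcca, against 14.0% of all windows. CCACCC was found before Bckdhb, Mccc1 and a second start of Bdh1, against 28.1%. The longer ERR site TCAAGGTCA, which contains AGGTCA and is held by 0.387% of windows, was in none of the 12 windows of members, nor were copies of AGGTCA set 1 base apart (DR1, 0.0335% of windows). The windows of Bckdhb and Pcca had 63.2% and 64.8% GC, those of Mccc1 and Bcat2 48.4% and 50.4%, and the median of all windows was 52.4%. A match is a description of these letters only.

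Bcat2, the mitochondrial transaminase that starts BCAA breakdown outside the liver (chr7:45570153-45589711 on GRCm38, the build of all gene positions here), was at 133.4 FPKM in control against 86.5 FPKM in csMed1-/- heart. The ratio was 0.649, within 2-fold, and 28.3% of all genes kept had a lower ratio. Its log2 ratio of -0.62 became 0.43 when both libraries were scaled to cardiomyocyte markers without Nppa, so its direction depended on the scaling. Its cytosolic counterpart Bcat1, which is sparse in adult muscle, was at 0.231 and 0.618 FPKM, under the filter. The ratio of Bcat2 to Bcat1 within a library was 578.0 in control and 140.0 in csMed1-/- heart, with Bcat1 below 1 FPKM in both.

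BCKDH is built from E1 (an alpha subunit, Bckdha, and a beta subunit, Bckdhb), an E2 core that carries the acyl group on lipoic acid (Dbt), and E3 (Dld), which it shares with the pyruvate and 2-oxoglutarate dehydrogenase complexes. The E1 subunits did not move alike. Bckdha (chr7:25629946-25658981, minus strand) was the most abundant member, at 383.8 FPKM in control against 266.8 FPKM in csMed1-/- heart. Its ratio of 0.695 lay within 2-fold, and the log2 ratio of -0.52 turned to 0.06 and 0.53 under scaling to cardiomyocyte markers with and without Nppa. Bckdhb (chr9:83925145-84124240) was at 58.6 FPKM in control against 8.42 FPKM in csMed1-/- heart, 6.96-fold lower. Its log2 ratio of -2.80 was the lowest of the members, and 2.27% of all genes kept lay below it. Bckdhb went from rank 1499 to rank 5175 of all genes by FPKM, whereas Bckdha went from 314 to 451.

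The ratio of Bckdha to Bckdhb within a library does not depend on how the libraries are scaled. It was 6.55 in control and 31.7 in csMed1-/- heart, a change of 4.84-fold. The alpha to beta ratio of pyruvate dehydrogenase E1, Pdha1 over Pdhb, moved the other way and less, from 0.284 in control to 0.212 in csMed1-/- heart. Exons of Bckdha share 1171 bases with B3gnt8 on the opposite strand, a gene at 5.00 and 5.58 FPKM, and whether reads were assigned by strand is not given in the sources used here. Exons of Bcat2, Mccc1, Pcca, Oxct1 and Bdh1 also overlap genes of the opposite strand, and those of Bckdhb, Dbt and Ppm1k do not.

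Dbt (chr3:116513070-116549981), the E2 core, was at 1.64 FPKM in control against 0.577 FPKM in csMed1-/- heart. That is 2.84-fold lower (log2 ratio -1.50), but with a pseudocount of 1 FPKM the log2 ratio was -0.74, inside 2-fold. In FPKM, Dbt stood 234.6-fold below Bckdha in control and 462.8-fold below it in csMed1-/- heart. Dld, the shared E3, was at 23.1 FPKM in control against 5.99 FPKM in csMed1-/- heart, 3.85-fold lower.

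BCKDH is switched off by phosphorylation of its E1 alpha subunit through the kinase Bckdk and switched on again by the phosphatase Ppm1k. Ppm1k (chr6:57506502-57535468, minus strand) was at 1.07 FPKM in control against 0.670 FPKM in csMed1-/- heart. The ratio of 0.625 was within 2-fold, and its direction turned, to a log2 ratio of 0.37, under scaling to cardiomyocyte markers without Nppa. Bckdk shares a row with its neighbour Myst1 in the files, and the joint row was at 89.4 and 87.7 FPKM (ratio 0.981). How much of that level belongs to the kinase cannot be told apart.

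**Figure D2:**
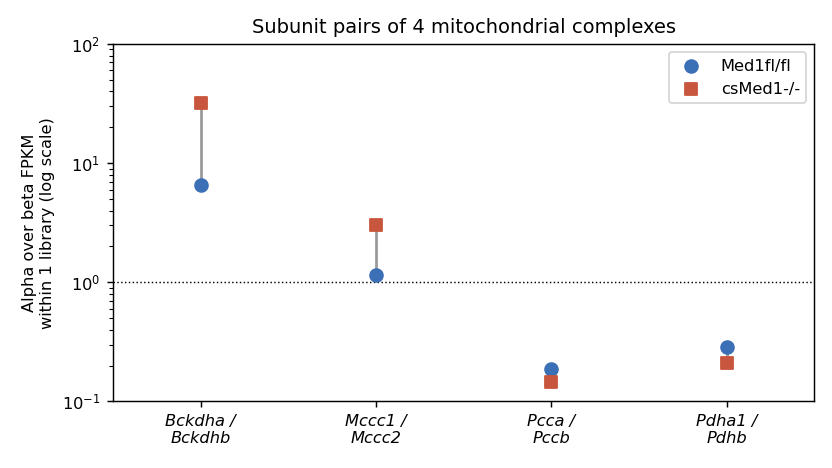
Ratio of alpha to beta subunit FPKM within the control library (circles) and the csMed1-/- library (squares) on a log axis, for E1 of BCKDH, methylcrotonyl-CoA carboxylase, propionyl-CoA carboxylase and E1 of pyruvate dehydrogenase; the dotted line marks equal levels and each point is 1 library. Bckdha over Bckdhb goes from 6.55 to 31.7 and Mccc1 over Mccc2 from 1.15 to 3.02, while Pcca over Pccb and Pdha1 over Pdhb are lower in csMed1-/- heart and move less.

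Mccc1 and Pcca are the biotin-carrying alpha subunits of carboxylases further down the branches. Mccc1 (chr3:35959312-36000678, minus strand), of methylcrotonyl-CoA carboxylase in leucine breakdown, was at 37.7 FPKM in control against 9.58 FPKM in csMed1-/- heart, 3.94-fold lower (log2 ratio -1.98). Its partner Mccc2, the beta subunit, was at 32.9 and 3.17 FPKM, 10.4-fold lower (log2 ratio -3.37). Both fell, Mccc2 further, so that the Mccc1 to Mccc2 ratio within a library was 1.15 in control and 3.02 in csMed1-/- heart.

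Pcca (chr14:122534324-122891100), of propionyl-CoA carboxylase, which takes the end product of isoleucine and valine breakdown towards succinyl-CoA, was at 17.0 FPKM in control against 3.58 FPKM in csMed1-/- heart, 4.75-fold lower (log2 ratio -2.25). The beta subunit Pccb was at 90.9 and 24.5 FPKM, 3.70-fold lower. The Pcca to Pccb ratio was 0.187 in control and 0.146 in csMed1-/- heart, so these subunits kept nearer to their control proportion than those of E1 or of methylcrotonyl-CoA carboxylase.

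Bdh1 and then Oxct1 act on ketone bodies. Oxct1 was more than 2-fold lower in csMed1-/- heart, while Bdh1 was higher but within 2-fold. Bdh1 reached 1 FPKM only in csMed1-/- heart, and with a pseudocount of 1 FPKM its log2 ratio was 0.34. Oxct1 (chr15:4026383-4155344), the CoA transferase that activates acetoacetate and commits it to oxidation, was at 91.9 FPKM in control against 22.5 FPKM in csMed1-/- heart, 4.07-fold lower (log2 ratio -2.03). Bdh1 (chr16:31422280-31458901), which oxidizes β-hydroxybutyrate to acetoacetate, was at 0.807 FPKM in control against 1.29 FPKM in csMed1-/- heart, a ratio of 1.60 that stayed within 2-fold. It passed 2-fold, with a log2 ratio of 1.73, only under scaling to cardiomyocyte markers (1.26 with Nppa among them). By FPKM, Bdh1 was the lowest member in control, and Oxct1 exceeded it 113.8-fold in control and 17.5-fold in csMed1-/- heart. Acat1, the thiolase that splits acetoacetyl-CoA after Oxct1 and also serves isoleucine breakdown, was at 154.1 and 36.9 FPKM, 4.18-fold lower, and the Acat1 to Oxct1 ratio was 1.68 in control and 1.63 in csMed1-/- heart.

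**Figure D3:**
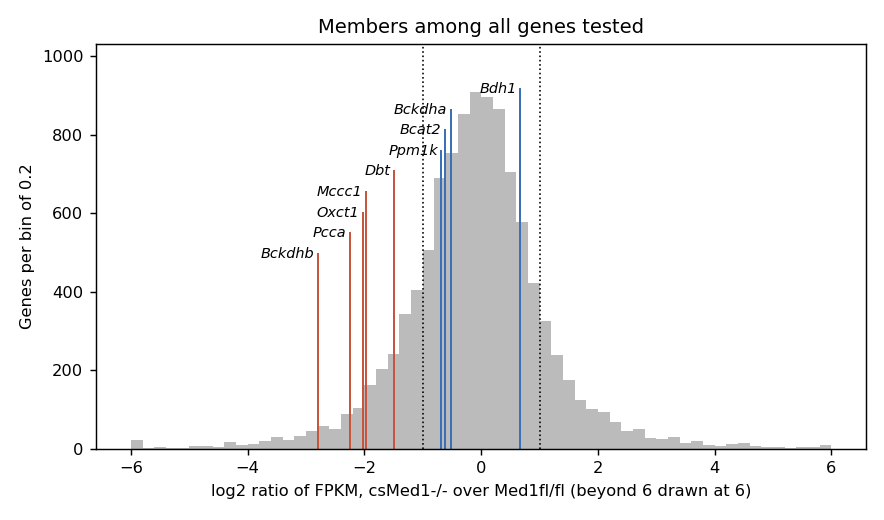
Histogram of the log2 ratio of csMed1-/- to control FPKM over the 10489 genes kept (grey, genes per bin of 0.2), with a line for each member (red past 2-fold, blue within it; dotted lines at -1 and 1; line height has no meaning). Bckdhb at -2.80, Pcca, Oxct1, Mccc1 and Dbt stand in the lower tail, Bcat2, Bckdha and Ppm1k within the bulk and Bdh1 at 0.67 on the higher side.

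The other enzymes of BCAA breakdown were lower along most of the route. Of 19 kept out of 20 listed, 14 were more than 2-fold lower and 0 more than 2-fold higher. The shares of all genes kept were 18.0% and 13.6%. The median log2 ratio of the 19 was -1.43. In the leucine branch, Ivd, which oxidizes isovaleryl-CoA, was at 202.5 FPKM in control and 2.70-fold lower in csMed1-/- heart. Auh, the hydratase after methylcrotonyl-CoA carboxylase, was at 51.6 and 19.2 FPKM (2.69-fold lower).

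The isoleucine and valine branches held the exceptions. Their acyl-CoA dehydrogenases lay at nearly equal levels in both libraries, Acadsb at 2.24 and 2.21 FPKM and Acad8 at 25.4 and 23.4 FPKM. The hydratase Echs1, which serves fatty acids too, was at 503.3 and 125.1 FPKM, 4.02-fold lower. Hibch (3.77 and 1.11 FPKM, 3.40-fold lower), Hibadh (162.7 and 49.1 FPKM, 3.31-fold lower) and Aldh6a1 (17.1 and 7.18 FPKM, 2.37-fold lower) follow each other in valine breakdown, and all fell. Hsd17b10, of isoleucine breakdown, was at 282.7 and 177.4 FPKM, within 2-fold.

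Beyond propionyl-CoA, the epimerase Mcee was at 194.6 and 64.9 FPKM (ratio 0.334) and the mutase Mut, which makes succinyl-CoA, at 5.27 and 1.34 FPKM (3.94-fold lower). Mmaa and Mmab, which supply the cobalamin cofactor of Mut, were 2.11-fold and 2.24-fold lower.

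Of the BCAA carriers, listed with Klf15, 2 of 6 genes were more than 2-fold higher, where 13.6% of all genes kept were. The list held 0 genes more than 2-fold lower. Slc7a5 and Slc3a2 encode the chains of the leucine exchanger of the plasma membrane. Slc7a5 was at 3.92 FPKM in control against 88.3 FPKM in csMed1-/- heart, a ratio of 22.5, and 99.6% of genes kept had a lower ratio. Slc3a2 was at 40.6 and 144.6 FPKM, a ratio of 3.56. The other carriers of the plasma membrane in the list lay within 2-fold, Slc7a8 at 0.967 and 1.59 FPKM and Slc43a1 at 3.36 and 3.87 FPKM. The mitochondrial BCAA carrier Slc25a44 was at 14.7 and 21.0 FPKM, and Klf15, a transcription factor known to activate BCAA breakdown genes in muscle, at 31.7 and 25.1 FPKM, both within 2-fold.

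**Figure D4:**
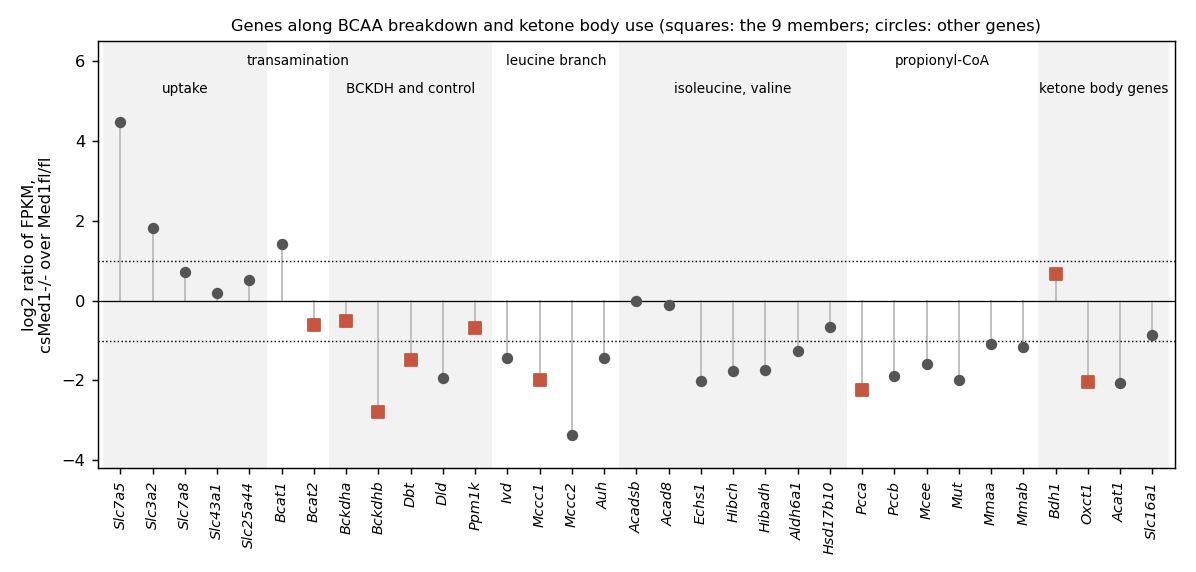
Log2 ratio of csMed1-/- to control FPKM for genes placed along uptake, transamination, BCKDH, the branches, propionyl-CoA and ketone body steps (squares for the 9 members, circles for other genes; dotted lines at -1 and 1; 1 library a genotype). Slc7a5 at 4.49 and Slc3a2 at 1.83 stand high, most enzymes from Bckdhb onward lie between -1 and -3.37, and Bckdha, Acadsb and Acad8 stay within 2-fold; Bcat1 was under the filter.

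Among other ketone body genes, 6 of 10 were kept, with a median log2 ratio of -0.48. Of these, 2 were more than 2-fold lower and 1 more than 2-fold higher. Of all genes kept, 18.0% were more than 2-fold lower and 13.6% higher. The monocarboxylate transporter Slc16a1, which takes up ketone bodies and lactate, was at 48.6 and 26.9 FPKM, within 2-fold. Aacs, which uses acetoacetate for lipid synthesis in the cytosol, was higher, at 2.51 and 5.24 FPKM (ratio 2.09). The testis paralogs Oxct2a and Oxct2b were listed at 0 in both libraries.

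The complexes related to BCKDH and the TCA cycle, where both fuels end, had like counts. Of all genes kept, 18.0% were more than 2-fold lower and 13.6% higher. Of 13 genes of the pyruvate and 2-oxoglutarate dehydrogenase complexes with their kinases and phosphatases, 10 were more than 2-fold lower (median log2 ratio -1.44), namely Pdha1, Pdhb, Dlat, Ogdh, Dlst, Pdk1, Pdk2, Pdp1, Pdp2 and Pdpr. Pdha1, the E1 alpha subunit of pyruvate dehydrogenase, was at 126.8 and 39.3 FPKM, 3.23-fold lower. Bckdha, its counterpart in BCKDH, stood at 3.03 times Pdha1 in control and 6.79 times in csMed1-/- heart. Pdp2, a phosphatase that acts on pyruvate dehydrogenase as Ppm1k does on BCKDH, was at 3.67 and 0.305 FPKM, 12.1-fold lower. Its level in csMed1-/- heart was under 1 FPKM, where depth limits the size of a ratio. Of 15 TCA cycle genes, 12 were more than 2-fold lower and 0 higher (median -1.40), among them Cs, citrate synthase, which opens the cycle, at 1031 and 190.1 FPKM. Others that fell were Idh2, Idh3a, Idh3b, Sucla2, Suclg1, Suclg2, Sdha, Sdhb, Sdhd and Fh1. The other 3, Mdh2, Idh3g and Sdhc, were also lower but within 2-fold. Under scaling to cardiomyocyte markers 3 of the 13 and 6 of the 15 were more than 2-fold lower, where 8.73% of all genes kept were. Without Nppa 1 and 3 were (medians -0.38 and -0.35), where 4.83% of all genes kept were. No difference between these lists and the 9 members was tested.

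Scaling moved the levels of all genes together. Centring, the 75th percentile and the sum without the 100 highest genes moved the members by at most 0.07 on the log2 scale. Scaling to the summed cardiomyocyte markers added 0.58 to every log2 ratio, and 22.9% of all calls were then on the lower side, against 57.0% as deposited. Without Nppa among those markers the shift was 1.05 and that share 8.97%. Bckdhb and Pcca stayed more than 2-fold lower under both, with log2 ratios of -1.75 and -1.20 under the latter, and Oxct1 and Mccc1 stood at -0.98 and -0.93, inside 2-fold. Dbt lay inside 2-fold under both, at -0.92 and -0.45.

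**Figure D5:**
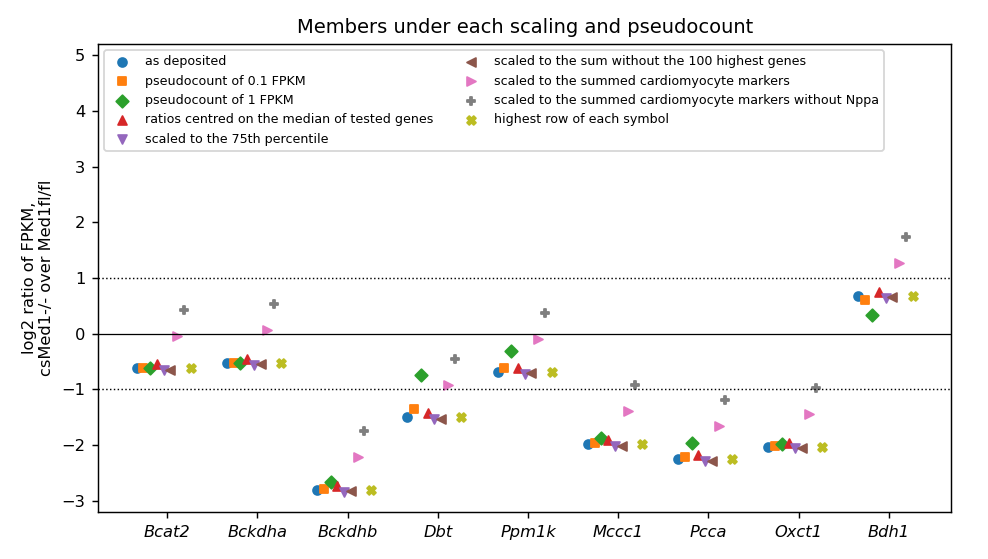
Log2 ratio of csMed1-/- to control FPKM of each member as deposited and under 8 other scalings, pseudocounts or row choices (marker shapes; dotted lines at -1 and 1). Bckdhb and Pcca lie under -1 in every setting drawn, Bcat2, Bckdha and Ppm1k cross 0 only under scaling to cardiomyocyte markers, and Bdh1 lies above 0 in all of them.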

How the data were processed

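Heart RNA of 5 mice a genotype was pooled, enriched for polyadenylated RNA, and made into 1 directional library of single-end reads a pool. The authors mapped reads with TopHat v2.0.8b on mm10, and the FPKM values they deposited were made for known genes by Cufflinks and cuffdiff v2.1.1. The submitters' processing notes also name STAR, Bowtie2 and DESeq2, with no role. The library scaling is not given in the sources used here.

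FPKM was used as deposited, and rows sharing a symbol (412 symbols) were summed. Of the rows, 210 name more than 1 gene, and these were kept as joint rows. Genes listed at 0 in neither library and reaching 1 FPKM in either were kept, and a plain csMed1-/- to control ratio past 2-fold was counted, with no test. Bckdk and the heart myosins, among others, were read from joint rows and Pc under its older symbol Pcx. Read counts were not used here, so absolute depth is unknown. Among 2461 rows that did not exceed 0.15 FPKM, ratios piled up at 0.721 (44 rows, against a median of 5 in neighbouring windows), which puts csMed1-/- at 1.39 times the control depth if only mapped reads were scaled. Gene models came from GENCODE M21 (GRCm38) and promoter windows from RefSeq, searched over 250 bases before the start.

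The members and gene lists were chosen with earlier results of these data known. The genes named were the members, their subunit partners and listed genes past 2-fold, and some of these are not reported here. Bcat1, Acadsb, Acad8, Hsd17b10, Slc7a8, Slc43a1, Acaca, Slc5a6, Slc25a44, Oxct2a, Oxct2b, B3gnt8, Ppard, Esrrb, Rxra, Pcx, Hlcs, Btd, Mdh2, Idh3g, Sdhc and the heart markers listed at 0 were added after their values were seen. Alternatives were pseudocounts of 0.1 and 1 FPKM, other filters, folds of 4 and 1.5, the highest row of a symbol, and 4 scalings, and scaling to cardiomyocyte markers without Nppa was chosen after seeing the data. The computation was tested on simulated data. A planned search for protein motifs was not run. Python 3.11.15, numpy 2.4.6, pandas 2.3.3 and matplotlib 3.10.9 were used.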

Additional observations from a re-analysis of the deposited data

How the results depend on the processing

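No paired analysis was possible because each genotype has 1 library and no result comes from a test. A median was taken as moved when it differed by over 1.5 times, and a count likewise, and causes were not tested. Here lower and higher count genes past 2-fold unless another fold is named. With a pseudocount of 1 FPKM the members' median log2 ratio was -0.74 and 0 other ketone body genes were higher. With no filter 1 other BCAA enzyme, Bcat1, was higher. At 10 FPKM or more, 0 other ketone body genes were higher and their median was -1.20. Under scaling to cardiomyocyte markers 1 member, Bdh1, was higher, 8 other BCAA enzymes and 1 other ketone body gene were lower, and 4 carrier genes were higher. Without Nppa among those markers 2 members were lower and 1 higher (median -0.45), 2 other BCAA enzymes were lower and 3 higher (median -0.38), 5 carrier genes were higher (median 1.66), and 1 other ketone body gene was lower and 2 were higher (median 0.57, from -0.48). Past 4-fold 3 members, 3 other BCAA enzymes and 1 other ketone body gene were lower, and 1 carrier gene and 0 other ketone body genes were higher. Past 1.5-fold 1 member, Bdh1, was higher. The filter changed the genes of all kinds counted lower from 1886 of 10489 to 3182 of 15930 with none, and to 885 of 5426 at 10 FPKM; 539 passed 4-fold and 3120 passed 1.5-fold. Scaling to cardiomyocyte markers left 916 lower and 3087 higher (8.73% and 29.4% of genes kept), and 507 and 5147 without Nppa (4.83% and 49.1%). Among the members, Dbt, Ppm1k and Bdh1 were under 2 FPKM in both libraries, and depth limits their ratios most.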

Other observations

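Regulators of oxidative genes were lower in part, where 18.0% of all genes kept were more than 2-fold lower. Of 9 kept, 5 were more than 2-fold lower, Ppara (12.4 and 1.66 FPKM), Ppargc1a (4.41 and 0.953 FPKM), Tfam (1.85 and 0.475 FPKM), Ppargc1b (4.87 and 1.76 FPKM over its rows) and Esrra (127.3 and 61.4 FPKM). The related receptors Ppard, Esrrb and Rxra lay within 2-fold, with ratios of 0.825, 0.865 and 0.658. Under scaling to cardiomyocyte markers 3 of the 9 were more than 2-fold lower, where 8.73% of all genes kept were. Without Nppa 2 were more than 2-fold lower and 1 more than 2-fold higher, where 4.83% and 49.1% of all genes kept were.

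Genes of the other biotin enzymes and of biotin handling mostly lay within 2-fold, where 18.0% of all genes kept were lower past it and 13.6% higher. Of 6 kept, 4 were lower and 1 of these more than 2-fold, Acacb, the muscle form of acetyl-CoA carboxylase, at 117.8 and 39.7 FPKM (2.97-fold lower). Acaca, its cytosolic paralog, had a ratio of 0.617, and the biotin transporter Slc5a6 was at 12.1 and 7.08 FPKM. Pyruvate carboxylase stood at 11.5 and 10.6 FPKM, Hlcs, which attaches biotin to all these enzymes, at 0.886 and 1.02 FPKM, and Btd, which recycles biotin, at 15.5 and 21.6 FPKM. Under scaling to cardiomyocyte markers 0 were more than 2-fold lower and 1 more than 2-fold higher, where 8.73% and 29.4% of all genes kept were. Without Nppa 0 and 2 were, where 4.83% and 49.1% of all genes kept were. No difference between these genes and the members was tested.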
